A study of Homo sapiens with 6 samples.

Results

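Chemokines are small secreted or membrane-bound proteins that bind G protein-coupled receptors on leukocytes and tumor cells and direct their migration. CC chemokines such as CCL2, CCL5 and CCL20 recruit monocytes, T cells and dendritic cells, CXCL10 and CXCL11 are made in response to interferon, and CXCL12 with its receptor CXCR4 guides cells to bone marrow, a common site of prostate cancer metastasis. CXCL16 and CX3CL1 differ from the others in that they are made as transmembrane proteins, whose chemokine domain can be shed by proteases. This account covers these 8 ligands and CXCR4, 9 of the 19775 genes that the platform annotation gives a probe set of their own. They were picked as a family by gene symbol, with every probe set whose annotation named that symbol alone, which gave 16 probe sets: 3 each for CCL5 and CXCR4, 2 each for CXCL11, CXCL12 and CX3CL1, and 1 each for CCL2, CCL20, CXCL10 and CXCL16.

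The arrays carried RNA of PC-3/Mc or of PC-3/S. Both are sublines of the human prostate carcinoma line PC-3, which was established from a metastasis in bone. Each was measured on 3 one-colour Affymetrix arrays, with RNA from subconfluent cells, and the labels give no treatment, agent or engineered allele for either line. They call the arrays of a line biological replicates without saying whether these were separate cultures, so p-values measure the spread among these arrays, and they do not say whether a line is a single clone. The series concerns tumor-initiating attributes and the epithelial-mesenchymal transition.

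The deposited values are log2 expression per probe set. Array medians ran from 4.979 to 5.087, correlations across probe sets were 0.9947 to 0.9967 within a line and 0.9491 to 0.9525 between lines, and no 2 arrays were identical. The simple-epithelial keratin genes KRT8 and KRT18 were well measured in both lines (means of 9.81 and 12.48 in PC-3/Mc, against 8.78 and 11.32 in PC-3/S). Detection calls were not used here. As a rough floor, the highest of all readings of CTNNA1, which PC-3 cells are known to have lost from their genome, was taken: its 5 probe sets read between 3.51 and 5.18, so that values up to 5.18 may be background. Higher values may be background too. The luminal genes KLK3 and TMPRSS2, known to be low in PC-3, read above 5.18 on all arrays on their brightest probe sets. KLK3 averaged 6.39 in PC-3/Mc, against 6.73 in PC-3/S, and TMPRSS2 averaged 5.84 in PC-3/Mc, against 6.24 in PC-3/S. A reading above the floor thus does not show by itself that a gene is expressed. The epithelial cadherin gene CDH1 averaged 7.67 in PC-3/Mc and lay under this floor on all PC-3/S arrays. Of the other carcinoma-line markers, EPCAM averaged 11.88 in PC-3/Mc, against 6.44 in PC-3/S. KRT19 went the other way and was lower in PC-3/Mc, at 11.28, against 11.76 in PC-3/S. Each mean ± SD is over n = 3 arrays per line, every difference is the PC-3/Mc mean less the PC-3/S mean, in log2 units with its SE, and adjusted p-values are from limma with Benjamini-Hochberg adjustment over all 54613 probe sets. A probe set is called where its adjusted p is under 0.05. A level of 1 probe set is not set against that of another, since probes differ in brightness.

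For 5 of the 9 genes RefSeq promoter windows were available (build GRCh38.p14, 250 bases before to 50 bases after the start site). Both CCL20 and the interferon-inducible pair CXCL10 and CXCL11 are known targets of NF-kappaB, and their windows are printed because the first gene separated the lines and the other pair did not. Capitals mark matches on either strand to the NF-kappaB (kappaB) consensus or to the core of the interferon-stimulated response element, GAAANNGAAA. The window of CCL20 lies at chr2:227813592-227813891 on the plus strand, that of CXCL10 at chr4:76023448-76023747 and that of CXCL11 at chr4:76036021-76036320, both on the minus strand.
CCL20: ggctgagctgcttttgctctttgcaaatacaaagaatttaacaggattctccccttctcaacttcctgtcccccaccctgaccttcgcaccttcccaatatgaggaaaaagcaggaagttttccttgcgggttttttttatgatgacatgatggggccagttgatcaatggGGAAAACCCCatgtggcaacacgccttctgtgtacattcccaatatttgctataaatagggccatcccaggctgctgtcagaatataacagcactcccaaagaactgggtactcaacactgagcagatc
CXCL10: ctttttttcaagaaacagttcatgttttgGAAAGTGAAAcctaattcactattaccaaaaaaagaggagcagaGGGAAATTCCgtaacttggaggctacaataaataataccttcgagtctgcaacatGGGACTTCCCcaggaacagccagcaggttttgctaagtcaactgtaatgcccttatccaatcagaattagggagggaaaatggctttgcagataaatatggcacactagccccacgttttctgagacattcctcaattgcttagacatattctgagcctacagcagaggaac
CXCL11: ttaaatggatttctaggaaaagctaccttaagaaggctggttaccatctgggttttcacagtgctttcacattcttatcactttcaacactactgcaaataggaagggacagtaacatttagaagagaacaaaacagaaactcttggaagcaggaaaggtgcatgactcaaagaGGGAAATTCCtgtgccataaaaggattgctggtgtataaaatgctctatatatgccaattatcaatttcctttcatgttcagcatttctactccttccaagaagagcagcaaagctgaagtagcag

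CCL20 held 1 kappaB match, GGAAAACCCC, from base -79 to base -70 relative to the start site. CXCL10 held 2, GGGAAATTCC at -177 to -168 and GGGACTTCCC at -122 to -113, and CXCL11 held 1, GGGAAATTCC at -76 to -67. The interferon-response core was found in CXCL10 alone of the 3, as GAAAGTGAAA at -221 to -212. No match overlapped another. Of all 35116 promoter windows of this length, 5.91% held a kappaB match and 3.57% the interferon-response core. The windows of CXCL12 and CXCR4 held neither motif. A match is a run of letters in the reference genome and not a measured binding site.

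Of the 9 genes, CCL2 and CCL20 were lower in PC-3/Mc, CXCL16 was higher, and the other 6 were not called on any of their probe sets. By probe set this was 1 called higher and 2 called lower of 16, against 18.4% called higher and 17.5% called lower over all probe sets, so the share of calls was not above the background. By gene, on the brightest probe set, it was 1 higher and 2 lower of 9, against 22.3% and 21.4% of all genes. The readings of PC-3/Mc and PC-3/S were fully separated on 6 of the 16 probe sets, against 45.3% of all probe sets. The median difference of the 16 was -0.09, and that of all probe sets -0.01. The plot of the readings by array shows that the 3 called genes shared a form: the brighter line read above 6 or close to it, while the dimmer line lay under the rough floor on each of its arrays.

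**Figure D1:**
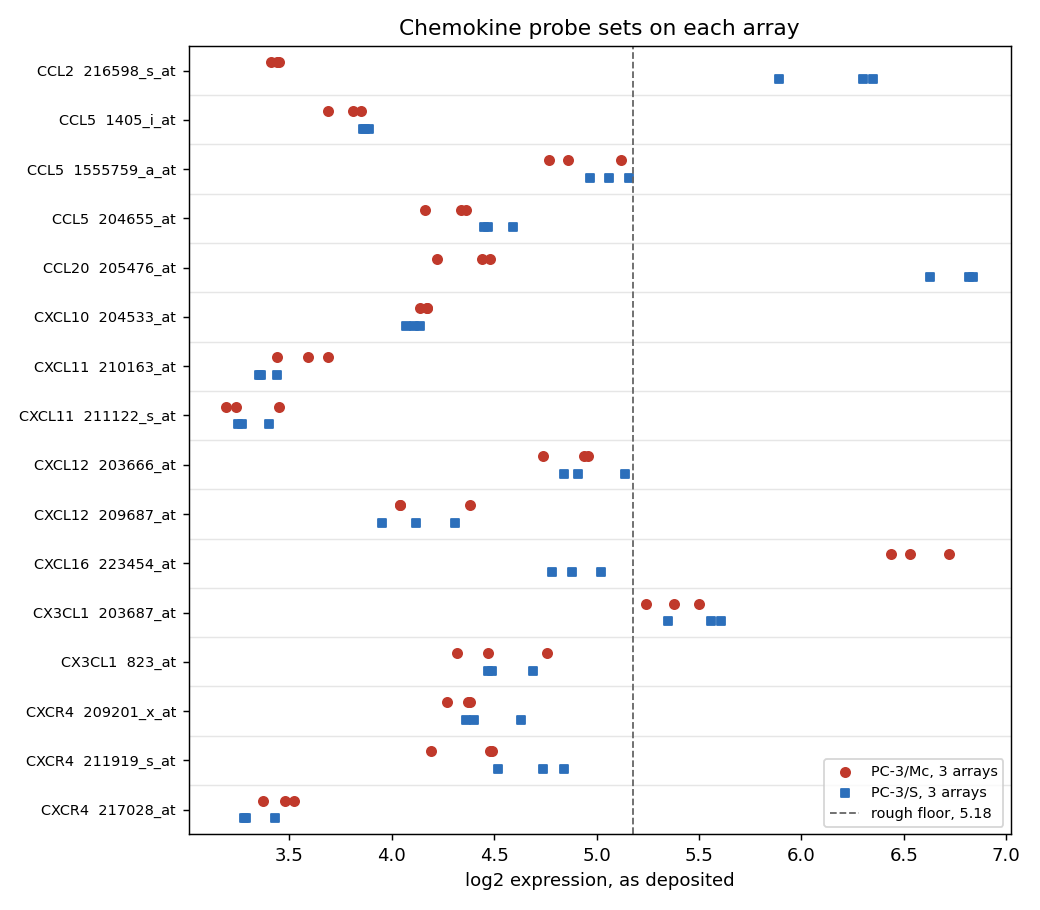
Log2 expression on each array (horizontal axis) for the 16 probe sets of the 9 genes, with PC-3/Mc as red circles above PC-3/S as blue squares and the rough floor of 5.18 as a dashed line. The lines stand far apart for CCL2, CCL20 and CXCL16, and 12 of the other 13 probe sets lie under the floor on all 6 arrays.

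CCL2, the monocyte chemoattractant that binds the receptor CCR2, read 3.44, 3.41 and 3.45 on the PC-3/Mc arrays, against 6.30, 5.89 and 6.35 on the PC-3/S arrays. The PC-3/Mc arrays were nearly identical and all under the floor, and every PC-3/S array was above it. The measured difference was -2.74 ± 0.12 (adjusted p = 3.9e-09), with an interval of -3.00 to -2.49 at the 95% level. Because the PC-3/Mc readings may be background, the fold is a lower bound, the PC-3/S mean against the PC-3/Mc arrays raised to the floor: CCL2 was at least 2.00-fold lower in PC-3/Mc. Its only probe set ends in _s_at, a kind that can match more than 1 transcript, so no second probe set was available to compare.

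CCL20, which attracts CCR6-bearing dendritic cells and lymphocytes, followed the same direction. It read 4.48, 4.44 and 4.22 in PC-3/Mc, against 6.84, 6.63 and 6.82 in PC-3/S. Again all PC-3/Mc arrays were under the floor and all PC-3/S arrays above it. The difference was -2.39 ± 0.10 (adjusted p = 3.5e-09), and with PC-3/Mc raised to the floor CCL20 was at least 3.01-fold lower in PC-3/Mc. In bulk RNA such as this, fewer cells that express a gene and less of its RNA per cell cannot be told apart.

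CXCL16, a membrane-anchored chemokine that also acts as a scavenger receptor, went the other way. It read 6.72, 6.44 and 6.53 in PC-3/Mc, against 4.88, 5.02 and 4.78 in PC-3/S. All 3 PC-3/Mc arrays were above the floor and all 3 PC-3/S arrays under it. The difference was 1.67 ± 0.10 (adjusted p = 9.2e-08), and against PC-3/S arrays raised to the floor CXCL16 was higher by at least 2.62-fold in PC-3/Mc. It is the only member for which PC-3/Mc was called higher, and it rests on 1 probe set.

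**Figure D2:**
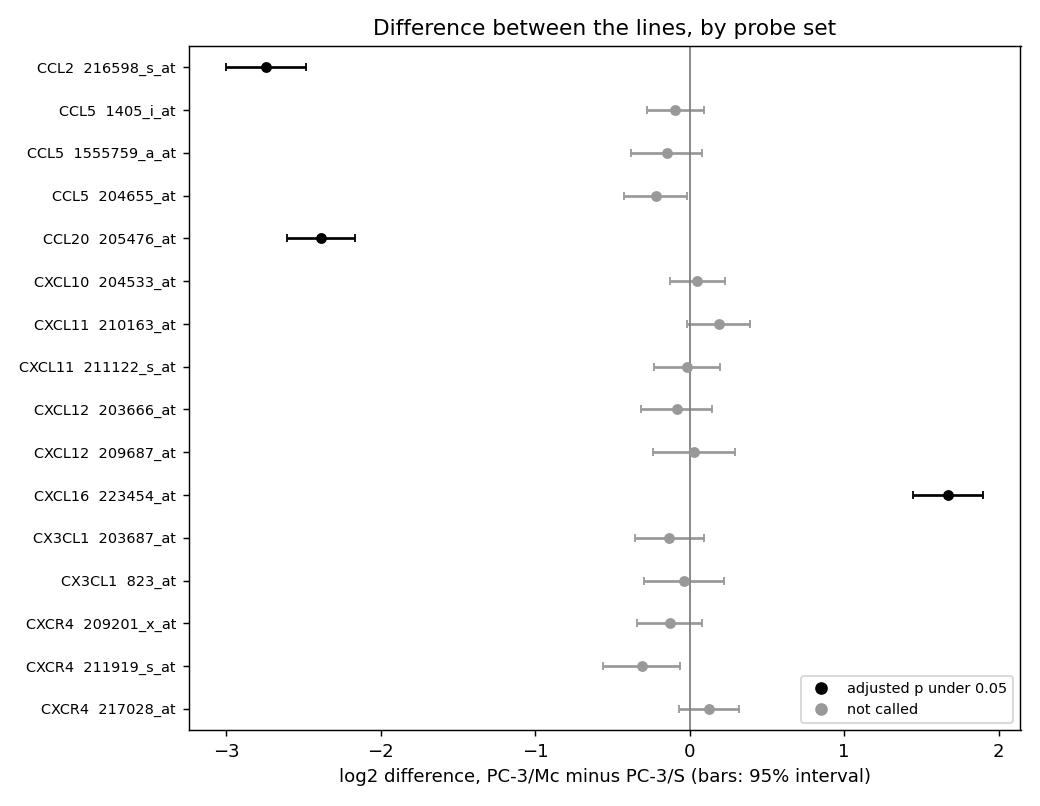
Log2 difference, PC-3/Mc minus PC-3/S, for each of the 16 probe sets, with 95% intervals from limma as bars and called probe sets in black. CCL2 (-2.74) and CCL20 (-2.39) lie far to the left and CXCL16 (1.67) to the right, while the 13 uncalled probe sets lie between -0.31 and 0.19.

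CX3CL1, or fractalkine, the other membrane-anchored ligand, was the only uncalled gene to read above the floor of 5.18, but its means lay under the highest reading of the leukocyte markers (5.61) in both lines. Its brighter probe set read 5.50, 5.24 and 5.38 in PC-3/Mc, against 5.61, 5.56 and 5.35 in PC-3/S. The ranges overlapped, and the difference of -0.13 (adjusted p = 0.378) had an interval of -0.36 to 0.09. The second probe set averaged 4.52 ± 0.22 in PC-3/Mc, against 4.55 ± 0.12 in PC-3/S (-0.03, adjusted p = 0.864), under the floor on all arrays.

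CCL5, or RANTES, which recruits T cells and monocytes, lay under the floor on all 3 probe sets and all 6 arrays. The brightest probe set read 4.77, 4.86 and 5.12 in PC-3/Mc, against 5.16, 4.97 and 5.06 in PC-3/S, and the ranges overlapped (-0.15, adjusted p = 0.321). The second averaged 4.28 ± 0.11 in PC-3/Mc, against 4.51 ± 0.07 in PC-3/S (-0.22, adjusted p = 0.0865), and the dimmest 3.78 ± 0.08 in PC-3/Mc, against 3.87 ± 0.02 in PC-3/S (-0.09, adjusted p = 0.462). On these 2 every PC-3/Mc array read below every PC-3/S array, though neither was called.

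The CXCR3 ligands CXCL10 and CXCL11, which attract activated T cells, were also under the floor throughout. CXCL10 read 4.14, 4.17 and 4.17 in PC-3/Mc, against 4.11, 4.14 and 4.07 in PC-3/S. The difference was 0.05 with an interval of -0.13 to 0.23 (adjusted p = 0.702), with ranges that met at 4.14. CXCL11 averaged 3.57 ± 0.12 in PC-3/Mc, against 3.38 ± 0.05 in PC-3/S on the brighter of its probe sets (0.19, adjusted p = 0.148). The dimmer one averaged 3.29 ± 0.14 in PC-3/Mc, against 3.31 ± 0.08 in PC-3/S (-0.02, adjusted p = 0.92). Of the promoters printed above, those of CXCL10 and CXCL11 belong to genes under the floor in both lines, and that of CCL20 to a gene above it in PC-3/S. They were picked by this outcome, and no window was available for CCL2 or CXCL16. A link between the motifs and the levels was not tested.

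CXCL12, the stromal ligand of CXCR4, averaged 4.88 ± 0.12 in PC-3/Mc, against 4.96 ± 0.16 in PC-3/S on its brighter probe set, and 4.15 ± 0.20 in PC-3/Mc, against 4.13 ± 0.18 in PC-3/S on the other. The differences of -0.08 and 0.03 were not called (adjusted p = 0.596 and 0.898), and all readings were under the floor. CXCR4 itself was likewise under the floor on all 3 probe sets. The brightest read 4.19, 4.48 and 4.49 in PC-3/Mc, against 4.84, 4.74 and 4.52 in PC-3/S, and the groups were apart by a narrow margin. Its difference of -0.31 ± 0.11 missed the threshold (adjusted p = 0.0529). It passed without PC-3/Mc replicate 3 (-0.36, adjusted p = 0.0403), without PC-3/S replicate 3 (-0.40, adjusted p = 0.0218), and with 1 probe set tested per gene (adjusted p = 0.0435). The other probe sets did not share its direction throughout: the second differed by -0.13 (adjusted p = 0.354) and the dimmest by 0.12 (adjusted p = 0.336). Over the 13 uncalled probe sets the intervals reached from -0.56 to 0.39, so differences of that size at the array's floor are not shown to be absent.

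Receptors were read on the brightest probe set of each gene. Of 20 measured, 1 was higher and 2 were lower in PC-3/Mc, against 22.3% and 21.4% of all genes, with 17 not called and a median difference of -0.01, against -0.03 over all genes. The means of 15 of the 20 were under the floor in both lines. ACKR3, the scavenging receptor for CXCL12 and CXCL11, read 4.54, 4.42 and 4.51 in PC-3/Mc, against 7.46, 7.44 and 7.78 in PC-3/S. It was at least 5.22-fold lower in PC-3/Mc, with a measured difference of -3.07 ± 0.11 (adjusted p = 5.6e-10), and its other 2 probe sets were not called. CCRL2, which binds chemerin and does not signal as a classical chemokine receptor, read 7.71, 7.59 and 7.39 in PC-3/Mc, against 5.96, 5.62 and 5.42 in PC-3/S. It was 3.73-fold higher in PC-3/Mc (1.90 ± 0.13, adjusted p = 3.1e-07), on a probe set ending in _s_at. The other lower receptor, CCR10 (-0.33, adjusted p = 0.026), was named after its value was seen; it was under the floor in both lines and lost its call without PC-3/Mc replicate 2 or 3 or PC-3/S replicate 1 or 2.

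The signalling receptors of the 3 called ligands did not differ detectably. CCR6, the receptor of CCL20, averaged 3.66 ± 0.12 in PC-3/Mc, against 3.57 ± 0.08 in PC-3/S (adjusted p = 0.515). CCR2, added after its values were seen, averaged 4.02 ± 0.19 in PC-3/Mc, against 4.04 ± 0.12 in PC-3/S (adjusted p = 0.928), and both genes lay under the floor. CXCR6, the receptor of CXCL16, was slightly above it at 5.40 ± 0.21 in PC-3/Mc, against 5.51 ± 0.08 in PC-3/S (adjusted p = 0.508). Its means lay under the highest reading of the leukocyte markers (5.61) in both lines, as those of CX3CL1 did. CXCR3 averaged 5.13 ± 0.19 in PC-3/Mc, against 4.95 ± 0.12 in PC-3/S (adjusted p = 0.25), and CX3CR1 averaged 4.04 ± 0.22 in PC-3/Mc, against 4.11 ± 0.19 in PC-3/S (adjusted p = 0.745). The plot of ligands with their receptors holds 7 receptors, CXCR4 included, of which ACKR3 alone was called.

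**Figure D3:**
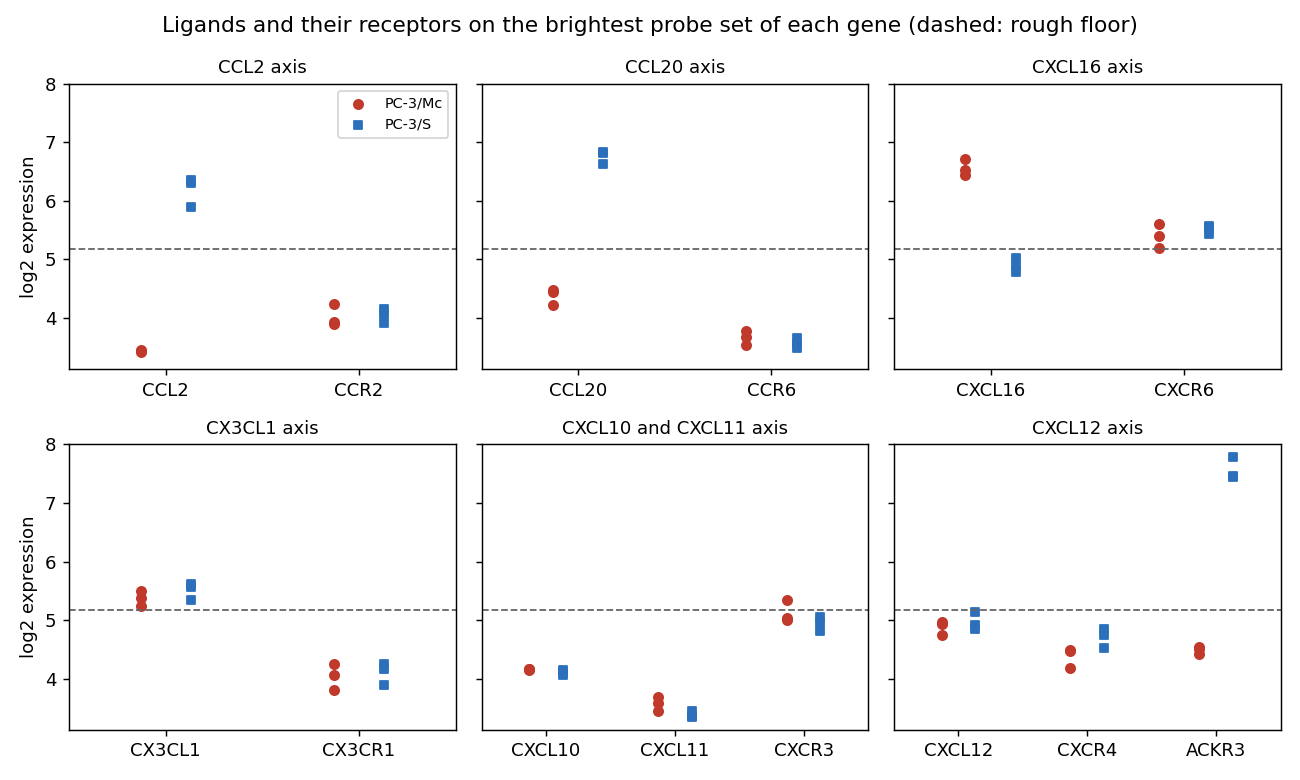
Log2 expression on each array for ligands and their receptors, each gene on its brightest probe set, with PC-3/Mc (red circles) left of PC-3/S (blue squares) and the rough floor of 5.18 dashed. CCL2, CCL20, CXCL16 and ACKR3 lie far apart between the lines, CXCR4 is apart by a narrow margin under the floor, and heights are comparable between lines within a gene but not between genes.

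Of 22 other CC, XC and CXC ligands measured, limma called 2 lower in PC-3/Mc and 0 higher, with 0 higher also at an unadjusted p under 0.05, against 22.3% of all genes higher and 21.4% lower. The median was -0.08, but the means of 19 of the 22 were under the floor in both lines. CCL26, or eotaxin-3, an eosinophil attractant, averaged 6.14 ± 0.15 in PC-3/Mc, against 7.17 ± 0.11 in PC-3/S, 2.04-fold lower in PC-3/Mc (adjusted p = 5.2e-06). CCL28, a mucosal chemokine named after its value was seen, differed by -0.37 ± 0.10 (adjusted p = 0.01). The neutrophil-attracting CXC ligands, 7 of 8 lower in PC-3/Mc with a median of -2.22 and PPBP not called (0.11), went the way of CCL2 and CCL20. That count includes PF4 (-1.12), named after its value was seen, whose only probe set ends in _x_at. CXCL8 averaged 7.63 ± 0.05 in PC-3/Mc, against 13.22 ± 0.05 in PC-3/S (-5.59 ± 0.08). CXCL6 differed by -4.66. The PC-3/Mc means of CXCL3 and CXCL5 were under the floor, and these genes were at least 6.26-fold and at least 2.39-fold lower in PC-3/Mc. The CXCL5 value depends on the probe set: without _x_at and _s_at probe sets it differed by -0.35 (adjusted p = 0.0143).

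Among 20 enzymes listed as shedding, trimming or otherwise modifying chemokines, 5 were called higher and 4 lower in PC-3/Mc. This was close to the 22.3% and 21.4% of all genes, and the median was -0.13. ADAM10 and ADAM17 are the proteases that release CXCL16 and CX3CL1 from the membrane. ADAM10 averaged 9.34 ± 0.15 in PC-3/Mc, against 9.01 ± 0.025 in PC-3/S (0.33 ± 0.10, adjusted p = 0.0164), with all 3 of its probe sets called higher, by 0.33 to 0.66. The call on the brightest was lost with quantile normalization (0.23, adjusted p = 0.0568) and without PC-3/Mc replicate 1 or 2 or PC-3/S replicate 1 (adjusted p = 0.0638, 0.0642 and 0.0557). ADAM17 averaged 8.21 ± 0.13 in PC-3/Mc, against 8.10 ± 0.07 in PC-3/S and was not called (adjusted p = 0.422). DPP4, which clips the amino terminus of CXCL10, CXCL11 and CXCL12, was 1.59-fold higher in PC-3/Mc at 9.18 ± 0.03, against 8.51 ± 0.07 in PC-3/S (adjusted p = 4.3e-05), with all 3 probe sets called higher. The collagenase MMP1 was higher (2.01 ± 0.14), and urokinase, PLAU (-1.68 ± 0.08), and the cathepsin gene CTSK (-1.11 ± 0.20, at least 1.30-fold) were lower. The remaining calls, named after their values were seen, were CTSL (0.87) and CTSB (0.68) higher and MMP14 (-0.87) and CTSD (-0.36) lower.

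NF-kappaB and inflammatory inducers drive CCL2 and CCL20 in many cell types. The list of these genes, which also holds feedback inhibitors of NF-kappaB, included 14 genes of 25 with lower calls in PC-3/Mc and 3 with higher calls. This compares with 21.4% and 22.3% of all genes, and the median was -0.56. IL6 averaged 4.76 ± 0.04 in PC-3/Mc, against 8.06 ± 0.22 in PC-3/S, at least 7.38-fold lower in PC-3/Mc. IL1B, an inducer of both chemokines, averaged 8.41 ± 0.07 in PC-3/Mc, against 11.32 ± 0.06 in PC-3/S, 7.54-fold lower in PC-3/Mc. The NF-kappaB subunit gene RELB (-2.01 ± 0.10) and the feedback inhibitor TNFAIP3 (-2.01 ± 0.09) were lower too. NFKBIA, which encodes the inhibitor of NF-kappaB, averaged 9.31 ± 0.11 in PC-3/Mc, against 11.23 ± 0.03 in PC-3/S (-1.91 ± 0.09, adjusted p = 7.8e-09), while its other probe set differed by 0.12 and was not called. TNFRSF1A, a receptor for tumor necrosis factor, was higher by 2.56-fold in PC-3/Mc, and the other 2 higher genes, named after their values were seen, encode kinase complex subunits, IKBKB (0.80) and IKBKG (0.27). The part of the genes of this list in the CCL2 and CCL20 differences was not tested.

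**Figure D4:**
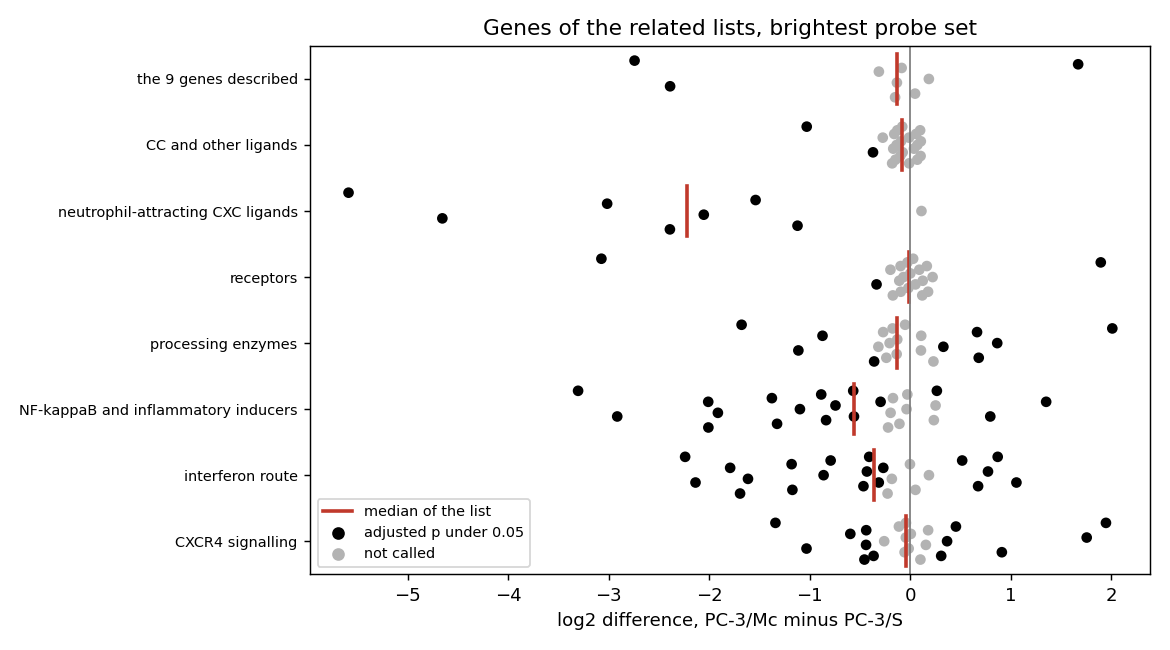
Log2 difference, PC-3/Mc minus PC-3/S, of each gene on its brightest probe set, for the 9 genes and the 7 related lists, with called genes in black and the median of each list as a red bar. The neutrophil-attracting ligands (median -2.22) and the NF-kappaB list (median -0.56) lie towards PC-3/S, while most other ligands and receptors lie near 0. Most of the latter were under the rough floor in both lines.

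The interferon route, through which CXCL10 and CXCL11 are induced, was lower in PC-3/Mc for 14 of 24 genes and higher for 5, against 21.4% and 22.3% of all genes, with 5 not called and a median of -0.36. IRF1, a transcription factor of the interferon response, averaged 6.28 ± 0.09 in PC-3/Mc, against 8.52 ± 0.11 in PC-3/S, 4.72-fold lower in PC-3/Mc (adjusted p = 3e-09). IRF9 (-2.14 ± 0.11), the RNA sensor RIGI (-1.79 ± 0.10) and IRF7 (-1.69 ± 0.10) were lower as well. Interferon beta (IFNB1), added after its values were seen, was under the floor on all arrays, at 3.65 ± 0.16 in PC-3/Mc, against 3.97 ± 0.10 in PC-3/S (-0.31, adjusted p = 0.0337). Higher in PC-3/Mc were the DNA sensor CGAS (1.06 ± 0.10, on 1 of its 3 probe sets) and, named after their values were seen, IFNGR1 (0.87), TBK1 (0.77), JAK2 (0.68) and IRF2 (0.52). IFNGR2, IFNL1, IFNG, JAK1 and TLR3, also named afterwards, were not called. Since CXCL10 and CXCL11 were under the floor in both lines, a difference of either gene in either direction may have gone unseen on these arrays. The part of the interferon route in their levels was not tested.

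Genes of CXCR4 signalling and turnover were read for 23 genes: 6 were called higher and 7 lower in PC-3/Mc, against 22.3% and 21.4% of all genes, and the median was -0.04. RGS16, a regulator that shortens G protein signals, averaged 6.70 ± 0.13 in PC-3/Mc, against 4.95 ± 0.22 in PC-3/S, higher by at least 2.88-fold in PC-3/Mc; once _x_at and _s_at probe sets were dropped, it was read on another probe set, which differed by -0.026 and was not called. RGS2 was 2.53-fold lower at 10.93 ± 0.05 in PC-3/Mc, against 12.27 ± 0.01 in PC-3/S, and the G protein subunit gene GNG2 differed by -1.03 ± 0.12 on its brightest probe set, the only one of 4 that was called. The beta-arrestin gene ARRB1 was higher on its brightest probe set (1.95 ± 0.09), but its 7 probe sets disagreed, with 4 higher and 3 lower.

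Chemokines are also made by leukocytes, endothelial cells and fibroblasts, whose markers were read in the same arrays. Of 9 leukocyte markers limma called 0, with 1 at an unadjusted p under 0.05 (CD14, 0.40). The mean level of the list ran from 4.29 to 4.55 on PC-3/Mc arrays and from 4.29 to 4.46 on PC-3/S arrays. PTPRC, the pan-leukocyte gene, was under the floor in both lines (3.90 in PC-3/Mc, against 3.72 in PC-3/S). The mean of CD3D was above the floor in both lines, at 5.32 in PC-3/Mc, against 5.46 in PC-3/S. Among 5 endothelial markers 1 was higher (PECAM1, 0.60) and 1 lower (KDR, at least 2.07-fold), and the list averaged 4.89 to 5.06 in PC-3/Mc and 5.20 to 5.38 in PC-3/S. The means of CDH5 and VWF were under the floor in both lines, while PECAM1 was above it, at 7.18 in PC-3/Mc, against 6.58 in PC-3/S. Of the 5 probe sets of PECAM1, 2 were called higher, and the differences ran from -0.09 to 0.60 over all 5. Among 5 fibroblast markers 1 was higher (PDGFRB, 0.35) and 2 were lower (DCN, -0.44, and COL1A1, -0.28 on its brightest probe set), and the list averaged 5.34 to 5.57 in PC-3/Mc and 5.53 to 5.70 in PC-3/S. Of the 7 probe sets of DCN, only the brightest was called, and it was under the floor in PC-3/Mc. The differences of DCN ran from -0.44 to 0.18 over all 7. Of the 5 probe sets of COL1A1, 3 were called lower, and their differences ran from -2.64 to -0.24 over all 5. The brightest was above the floor in both lines, at 7.39 in PC-3/Mc, against 7.67 in PC-3/S. Of 2 erythroid markers limma called 0, with 1 at an unadjusted p under 0.05 (HBB, -0.22). The part of KDR, DCN and COL1A1 in the chemokine differences was not tested.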

How the data were processed

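Values are the authors' deposited log2 expression values for 54675 probe sets on 6 arrays, and 62 control probe sets were left out. The sources used here do not name the software, background correction or normalization; base 2 was taken from the range of the values (2.59 to 14.45). If the arrays were put on a common scale before deposit, each difference is relative to the rest of its array. The number of arrays limits the precision (median SE 0.098).

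Genes came from the platform annotation. The lines were compared with limma 3.58.1 (R 4.3.3; two-sided lmFit and eBayes without covariates), tested on simulated data. The members and lists were chosen with earlier results of these data known. The 7 related lists held 156 genes, 142 of them measured, each read on its probe set with the highest mean; 6 marker lists covered cell types (of the luminal prostate list, 2 genes were measured, 0 higher and 1 lower). Named genes were all members, up to 4 called genes per direction and list of at least 2-fold difference (1 on the log2 scale) whose higher line reached the median level (5.05), and anchors, 1 of which is not analysed here. The rough floor was chosen after the values were seen.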

Additional observations from a re-analysis of the deposited data

How the results depend on the processing

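Under 13 alternatives CCL20 stayed between -2.45 and -2.31 and CXCL16 between 1.59 and 1.74, and under the 12 that could give it a value CCL2 stayed between -2.89 and -2.66, all called (largest adjusted p = 7.2e-06). The replicate numbers did not pair the samples (correlations of the deviations of same-numbered arrays -0.006, -0.214 and -0.309). Between differently numbered arrays of the lines these correlations ran from -0.079 to 0.271, and whether such arrays share a batch was not tested. With a replicate block 1 probe set of the 9 genes was called higher and 2 lower, as before, and 9141 and 8302 of all probe sets. With _x_at and _s_at probe sets dropped, CCL2 had no value and 1 probe set of the 9 genes was called lower; of all probe sets 5928 were higher and 6053 lower. In that setting, with fewer probe sets entered, receptors gave 0 higher, the NF-kappaB list 0 higher and 9 lower, the interferon route 3 higher, processing enzymes 2 lower and CXCR4 signalling 3 higher and 3 lower; RGS16 (-0.026, adjusted p = 0.891) and NFKBIA (0.12, adjusted p = 0.437) changed sign, CXCL5 was still called with a smaller difference (-0.35, adjusted p = 0.0143), and CGAS (0.14, adjusted p = 0.405) and GNG2 (-0.31, adjusted p = 0.0656) were not called. With 1 probe set per gene, fewer were tested and 4585 were higher and 4498 lower. Receptors gave 2 higher and 1 lower with arrays centred on their medians, 1 lower without probe sets under the 40th percentile of mean level, and 1 to 2 lower when an array was left out. The cause of the changes under centring was not tested. With a floor of 5.61, the highest reading of the leukocyte markers, chosen after seeing the data, the lower bounds became 1.48-fold for CCL2, 2.23-fold for CCL20 and 1.94-fold for CXCL16, and the means of CX3CL1 lay under this floor in both lines.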

Other observations

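Genes that lie beside the 9 in the RefSeq order of protein-coding genes were read as well, without coordinates because the array annotation names no build here; they were chosen for position, and those named were chosen after their values were seen. On chromosome 17 the chemokine genes that follow CCL2, namely CCL7, CCL11 and CCL8, were not called (-0.01, -0.15 and -0.07), while TMEM98, the third gene before it, was at least 11.72-fold lower in PC-3/Mc, its mean there being under the rough floor. SPACA3 and ASIC2, the genes between TMEM98 and CCL2, were under the floor and not called (-0.15 and 0.01). On chromosome 2 the first protein-coding gene after CCL20, DAW1, which encodes a dynein assembly factor of cilia, averaged 4.04 in PC-3/Mc, against 6.69 in PC-3/S, at least 2.85-fold lower in PC-3/Mc, where it was under the floor as CCL20 was. SPHKAP, the gene after DAW1, was under the floor in both lines and not called (-0.15), and PID1 after it was lower in PC-3/Mc (-0.69). On chromosome 4, CXCL9, the third CXCR3 ligand, was not called (-0.17, adjusted p = 0.255), as its neighbours CXCL10 and CXCL11 were not.

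On chromosome 16, CX3CL1 stands between the chemokine genes CCL22 and CCL17, neither of them called (0.06 and -0.08). Bright genes close to this trio were higher in PC-3/Mc: ARL2BP by 1.22 ± 0.09, CIAPIN1, a factor in iron-sulfur protein assembly, by 1.99 ± 0.08, and COQ9, which acts in coenzyme Q synthesis, by 1.52 ± 0.09. On chromosome 10 ZNF32, a zinc finger gene next to CXCL12, was under the floor in PC-3/Mc and at least 6.53-fold lower there, while CXCL12 was not called. CXCL16 was higher in PC-3/Mc next to MED11, a mediator subunit gene on chromosome 17, which was higher by 0.58 ± 0.10. ZMYND15, on the other side of CXCL16, was under the floor and not called (0.02). Farther out TM4SF5 was called higher (0.40), and PELP1 (0.20) and VMO1 (-0.30) were not called. Whether neighbouring genes differ together because of their position was not tested.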
